A study of Mus musculus with 24 samples.

Results

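The normal mammary gland of female FVB mice was compared between week 6 and week 12 of age, the interval in which a pubertal gland becomes the gland of a mature virgin. The samples were assigned by the labels alone, and the comparison used 6 of the 24 samples of the study, 3 FVB glands at week 6 and 3 at week 12. The FVB mice carried no transgene and served as age-matched controls of PyMT mice, which carry the polyoma middle T antigen under the MMTV promoter on the same strain and develop mammary tumors. Each of the 8 groups of the study, 2 genotypes at weeks 6, 8, 10 and 12, held 3 mice. Mammary tissue was snap-frozen, total RNA was depleted of ribosomal RNA, and directional libraries were sequenced, so all cell types of a piece of tissue were read together. In such bulk tissue, fewer cells of a type and less RNA per cell cannot be told apart. The week is the age of the mouse. Dates of RNA extraction, library preparation and sequencing are not given per sample in the labels, nor are litter and stage of the oestrous cycle.

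In puberty the mouse mammary gland grows by elongation of epithelial ducts through a pad of fat. The growth is driven by estrogen, growth hormone and IGF1, and it takes place in proliferating bulbs at the duct tips, the terminal end buds. In the mature virgin the ducts reach the edge of the pad, the end buds disappear, and later growth and secretion follow the oestrous cycle and pregnancy. Fat cells of the pad store lipid, secrete the hormones leptin, adiponectin and resistin, and make up much of the volume of the gland.

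The rows of the count table with the smallest p-values at week 12 were gene models lying in a tandem repeat. These rows share sequence, and whether reads that match several of them were counted is not given in the sources used here. The repeat has a period of 234 bases, as in the mouse major satellite of pericentromeric heterochromatin. In the first stretch of chromosome 9 that the mm9 assembly resolves, chr9:3000001-3040000, 69.4% of bases were the same 1 period apart, against a median of 31.1% at other shifts. Gene models on 15 rows lay in this sequence, 13 on chromosome 9 and 2 on chromosome 2. Of the 25-base words of the chromosome 2 rows, 50% in Gm10800 and 40.2% in Gm10801 also occur in the stretch of chromosome 9. One unit from the model Gm10718, chr9:3023617-3023850 on the + strand, and one from the model Gm10800, chr2:98506904-98507137 on the - strand, are shown from the mm9 genome, 5′ to 3′, because they show how alike copies on 2 chromosomes can be. They are the best match without gaps among all 234-base stretches of the longest exon of each model. Of the 234 bases, 219 match (93.6%), and the 15 that differ are in capitals.
Gm10718: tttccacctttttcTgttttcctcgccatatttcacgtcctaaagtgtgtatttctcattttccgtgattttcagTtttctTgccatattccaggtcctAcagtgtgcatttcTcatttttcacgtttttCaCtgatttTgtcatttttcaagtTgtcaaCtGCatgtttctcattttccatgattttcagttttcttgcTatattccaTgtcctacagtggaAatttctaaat
Gm10800: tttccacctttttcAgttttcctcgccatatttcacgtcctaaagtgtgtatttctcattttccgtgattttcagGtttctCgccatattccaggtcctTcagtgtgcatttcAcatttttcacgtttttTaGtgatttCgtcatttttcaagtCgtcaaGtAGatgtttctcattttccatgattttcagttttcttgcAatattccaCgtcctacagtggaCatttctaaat

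Among the rows with lower counts at week 12 were 4 short models that the annotation calls miRNA. Their sequences are shown because 3 of them are copies of one sequence. The model mmu-mir-689-2 lies at chr16:11144218-11144274 on the + strand, mmu-mir-2134-4 at chr9:56071522-56071578 on the - strand and mmu-mir-2134-1 at chr1:169270500-169270555 on the - strand. The first and the second are identical over 57 bases, and the third has 56 bases, of which 55 match, with 1 substituted base in capitals and 1 base missing. AL844840.2, at chr2:72850911-72850984 on the - strand, has a sequence of its own.
mmu-mir-689-2: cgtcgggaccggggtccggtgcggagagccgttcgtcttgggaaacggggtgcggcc
mmu-mir-2134-4: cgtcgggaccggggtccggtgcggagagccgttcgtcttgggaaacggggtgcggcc
mmu-mir-2134-1: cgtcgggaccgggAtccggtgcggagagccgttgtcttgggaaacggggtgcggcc
AL844840.2: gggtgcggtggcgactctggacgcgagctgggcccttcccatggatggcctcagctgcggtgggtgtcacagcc

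The libraries held 9630077 to 11376792 counts at week 6 and 6969375 to 8898264 at week 12, so all week 12 libraries were shallower. All 6 libraries had counts for the luminal keratin Krt8, the basal keratin Krt14 and the fat cell hormone Adipoq. Counts of 24 skeletal muscle genes made up between 0.0155% and 14.8% of a library at week 6 and between 0.0543% and 9.69% at week 12. Replicate 1 was the highest and replicate 3 the lowest at both ages. In replicate 2 of each age the counts of low genes piled up in packets, near 12 reads at week 6 and 9 reads at week 12, and the other 4 libraries showed no such peak.

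Of 14918 genes tested, 0 passed at an adjusted p under 0.05 in edgeR's quasi-likelihood test, at any fold change. The smallest adjusted p was 0.159. Without replicate 1 of week 6 the count was 4, and without replicate 2 of week 12 it was 3. At an unadjusted p under 0.05, 820 genes (5.5%) differed, of which 436 (2.92%) had higher and 384 (2.57%) lower counts at week 12. The median log2 fold change over all tested genes was -0.01, with a median SE of 0.33, and 48.9% of genes had a higher count at week 12. The 3 samples of one age did not overlap the 3 of the other in 1757 genes (11.8%), 1063 higher (7.13%) and 694 lower (4.65%). Other tests of the same counts called more genes past a 2-fold change: 61 (0.409%) in DESeq2's Wald test, 43 (0.288%) in edgeR's exact test and 49 (0.328%) in its likelihood ratio test, while limma voom called 0. DESeq2, the exact test and the likelihood ratio test shared 41 genes, of which 14 were rows of repeated or short sequence as printed above. The rest, picked here after their values were seen, included Retn, Ckb, Ces1f, Gstt2, B3galt2, Trpc6, Osgin1, Igkc, Igj, Tpsb2 and Cd209a with higher counts. Those with lower counts included Expi, Exo1, Stil, Chtf18, Adamts20, Lars2, Myb and Gm14236. Below, a gene is described as higher or lower from its values, and counts of genes at p under 0.05 use the unadjusted p.

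Reads on the 234-base repeat were more abundant at week 12 than at week 6. Summed over its 15 rows, the 3 week 6 glands had 134, 130 and 166 CPM (counts scaled to the total of the library), and the 3 week 12 glands had 1240, 3672 and 1236. The lowest week 12 gland thus stood far above the highest week 6 gland, and the ratio of the means was 14.3 (143 ± 19.8 against 2049 ± 1405 CPM, SD, n = 3 each). Of the FVB samples that this comparison did not use, those of week 8 lay between with 541, 419 and 339 CPM, and those of week 10, with 759, 209 and 1632, reached into the range of week 12. In the PyMT samples the sums were 40.3 to 141 CPM at week 6, 191 to 243 at week 8, 252 to 1064 at week 10 and 410 to 1169 at week 12, and weeks 6 and 12 did not overlap there either.

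**Figure D1:**
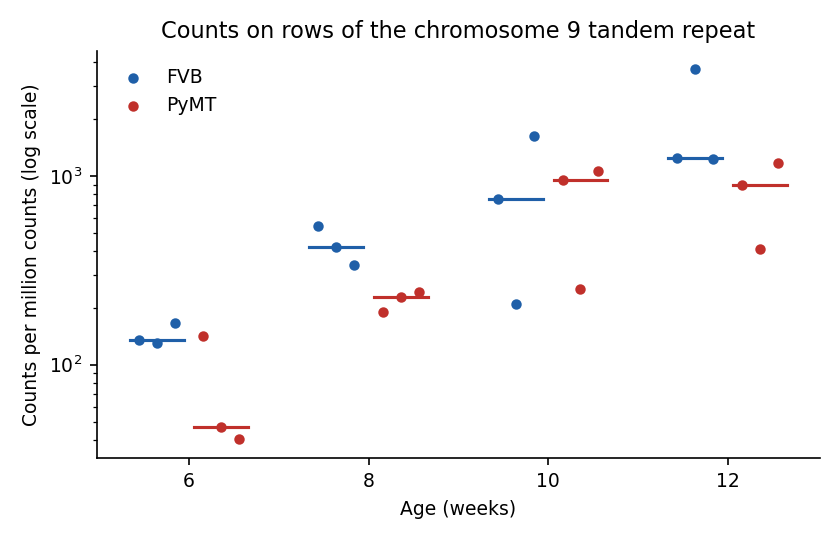
CPM (log axis) summed over the 15 rows of the 234-base repeat, by age in weeks, with 1 point per sample in replicate order from left to right and a line at the median of the 3. FVB samples had 130 to 166 at week 6 and 1236 to 3672 at week 12, and the PyMT samples also had more at week 12 than at week 6.

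Of the 15 rows, 13 passed the filter on low counts, and each had a log2 fold change above 0, from 1.84 to 6.42 with a median of 3.81. Each of the 13 had p under 0.05 and groups that did not overlap, and DESeq2 called 12 of them. Over all genes the shares were 2.92% and 7.13%. The repeat was picked because its rows had the smallest p-values here, so these counts are no separate support. Their adjusted p in the quasi-likelihood test ran from 0.159 to 0.872. Because they share sequence, these rows are not 13 independent measurements. In PyMT samples the same 13 rows had a median log2 fold change of 4.23 between the same weeks, 13 were higher and 3 were called (0.389% of all genes were called there). The difference between the FVB and the PyMT change had p under 0.05 for 1 of the 13 (6.52% of all genes).

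Gm10718 had normalized counts of 157, 158 and 137 at week 6 and 1570, 3270 and 1345 at week 12. Its log2 fold change was 3.74 with an SE of 0.37 (adjusted p = 0.159 in edgeR's quasi-likelihood test), the smallest p of all genes. Gm10800 on chromosome 2 had 585, 241 and 339 at week 6 and 4714, 9093 and 3746 at week 12, a log2 fold change of 3.88. On both rows the 3 week 12 values exceeded every week 6 value, and replicate 2 was the highest at week 12. Gm16869, with 602, 544 and 672 against 5625, 15310 and 5106, held the most counts of the named rows. Gm11168 and Gm10722 had log2 fold changes of 4.22 and 2.93. The summed olfactory receptor genes, a family of sensory neurons of the nose, had 8.28 to 19.9 CPM at week 6 and 12.2 to 17.1 at week 12 and overlapped.

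The 3 copies of the 57-base sequence were lower at week 12. On mmu-mir-689-2 the week 6 glands had 33140, 9127 and 41810 normalized counts and the week 12 glands 1516, 4503 and 1696, a log2 fold change of -3.48. The lowest week 6 value was above the highest week 12 value, and replicate 2 was the lowest at week 6 and the highest at week 12. The 2 other copies had log2 fold changes of -3.22 and -3.58 and did not overlap either (4.65% of all genes). The 3 models were picked after their values were seen, so this is no separate support. In PyMT samples the median of the 3 was -2.13, and 1 was called (0.389% of all genes were called there). As copies of one sequence, the 3 models are not independent measurements. What RNA the reads on these models came from was not tested. The libraries held fragments longer than a mature miRNA, so these counts are not mature miRNA levels.

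AL844840.2 had 1310, 5223 and 4445 normalized counts at week 6 and 95.5, 245 and 50.3 at week 12, a log2 fold change of -4.84 with an SE of 0.75 (adjusted p = 0.425 in edgeR's quasi-likelihood test). FVB glands of weeks 8 and 10 had 571 to 18030, so week 12 stood apart from the 3 earlier ages. In PyMT samples its log2 fold change was 0.41. The FVB change minus the PyMT change was -5.24 on the log2 scale, among the 5 smallest p-values of that test, none of which passed after adjustment.

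Most genes of fat cells had higher values at week 12, none past the adjusted threshold. Of 27 tested genes of the adipocyte list, 24 had a higher and 3 a lower count, the median log2 fold change was 0.55, and 6 had p under 0.05, all higher (2.92% of all genes). In 7 of the 27 the week 12 values lay above every week 6 value (7.13% of all genes). Retn, the hormone resistin, had 1195, 939 and 1453 normalized counts at week 6 and 3932, 2683 and 2947 at week 12. All 3 week 12 glands thus exceeded the week 6 range, and the log2 fold change was 1.39 with an SE of 0.25 (adjusted p = 0.609 in edgeR's quasi-likelihood test). FVB glands had 912 to 2325 at week 8 and 1531 to 2286 at week 10, all below the lowest week 12 gland. The mean log2 level of the whole list did not set week 12 apart. It was 12.00 to 12.92 at week 8, 12.51 to 12.78 at week 10 and 12.10 to 12.90 at week 12.

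Adipoq, the hormone adiponectin, had 4627, 3179 and 4241 normalized counts at week 6 and 8493, 5277 and 10700 at week 12, with a log2 fold change of 0.99 and an SE of 0.31. The groups did not overlap. Fabp4, which carries fatty acids within fat cells, had 24920, 21800 and 23500 against 40880, 32110 and 47930, a log2 fold change of 0.75, and again the groups were apart. FVB glands of weeks 8 and 10 had 5253 to 9233 for Adipoq and 25480 to 49370 for Fabp4, so both genes reached into the week 12 range there. Cfd (adipsin) had a log2 fold change of 1.34, the beta-3 adrenergic receptor gene Adrb3 1.27 and the lipid droplet gene Cidec 0.82. The abundant enzymes Car3 (0.61) and Lpl (0.67), a lipase of fat tissue, overlapped between the ages. Of the genes with fold changes below 0, Mest was the lowest at -1.20.

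**Figure D2:**
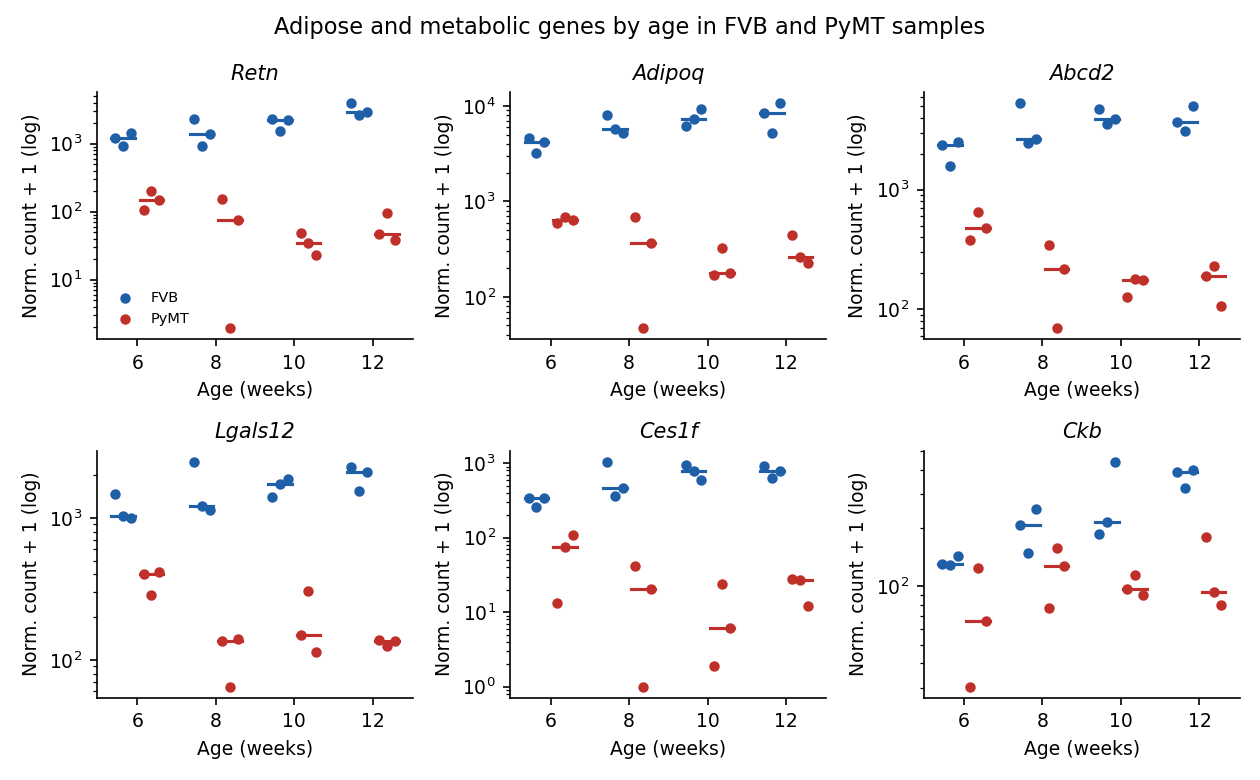
Normalized counts plus 1 (log axis) of Retn, Adipoq, Abcd2, Lgals12, Ces1f and Ckb by age in weeks in FVB and PyMT samples, with 1 point per sample and a line at the median of 3. In FVB the 3 week 12 points lie above the 3 week 6 points for each of the 6 genes, and all PyMT points of Retn and Adipoq lie below all FVB points.

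In PyMT samples, which are other mice, most of these genes had lower values at week 12. There the 27 adipocyte genes had a median of -0.99 on the log2 scale and 17 had p under 0.05 and lower counts, against 4.52% of all genes, although 0 were called. The change with age differed between the genotypes at p under 0.05 in 17 of the 27 genes, against 6.52% of all tested genes. Over all genes, 0 passed in this test at an adjusted p under 0.05 (smallest 0.161), 973 had p under 0.05, and DESeq2's test of the same difference passed 78. Lgals12, a galectin of fat cells, had the smallest p. It had 1482, 1032 and 992 normalized counts in FVB at week 6 and 2280, 1546 and 2109 at week 12, against 287 to 417 and 124 to 138 in PyMT. Its log2 fold change was 0.73 in FVB and -1.45 in PyMT, a difference of 2.19 (adjusted p = 0.161 in edgeR's quasi-likelihood test). Retn had a difference of 2.74, and Abcd2, a peroxisomal transporter of fatty acids, one of 2.33. The fifth gene, Znrd1as, was at 0 in all PyMT samples of week 6, so its fitted fold is no bound.

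Genes of lipid synthesis were mostly higher. Of 21 tested genes of fatty acid synthesis, 18 had a higher count at week 12, and the median log2 fold change was 0.43. The desaturase Fads1 (0.46) was the 1 gene at p under 0.05, where 2.92% of all genes had p under 0.05 and higher counts. The most abundant of them, Scd1 (0.44), Fasn (0.45) and Acaca (0.41), overlapped widely between the ages. Fasn, the fatty acid synthase, had 84990 to 253300 normalized counts at week 6 and 101500 to 357800 at week 12. Of 22 genes of cholesterol synthesis, 21 had a higher count, with a median of 0.36, and 3 were higher at p under 0.05 (2.92% of all genes). One of them was Sc5d, sterol-C5-desaturase, with 486, 438 and 488 at week 6 and 1065, 707 and 1272 at week 12, a log2 fold change of 1.08 and groups that were apart. The others were Sc4mol (0.91) and Ebp (0.61). In PyMT samples 15 of the 21 fatty acid genes and 7 of the 22 cholesterol genes had p under 0.05 and lower counts, against 4.52% of all genes.

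Several enzymes and signalling genes outside these lists had tight values at both ages. They were chosen after their values were seen. Ckb, the brain-type creatine kinase, had 130, 127 and 143 normalized counts at week 6 and 387, 320 and 400 at week 12, a log2 fold change of 1.44 with an SE of 0.21 (adjusted p = 0.374 in edgeR's quasi-likelihood test). Ces1f, a carboxylesterase, had 336, 261 and 337 against 905, 642 and 796, a log2 fold change of 1.30, and the glutathione transferase Gstt2 had 147, 115 and 160 against 401, 360 and 343 (1.36). For each of these 3 genes the groups were apart by more than the spread within either age. The galactosyltransferase B3galt2 (1.09), the cation channel gene Trpc6 (1.65) and the stress-response gene Osgin1 (2.08) also did not overlap. In PyMT samples the change of Ces1f was -1.59 (SE 0.94) and that of Trpc6 was 1.29 (SE 1.625). Both had low counts there at weeks 6 and 12, 11.1 to 109 for Ces1f and 1.03 to 35.3 for Trpc6.

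Genes of the cell cycle had lower means at week 12, with wide spread. All 50 tested genes of the list of cell cycle and DNA replication had a lower mean count in the fit, the median log2 fold change was -1.44, and 9 had p under 0.05 (2.57% of all genes). In 3 of the 50 every week 12 value lay below every week 6 value (4.65% of all genes). The mean log2 level over the list was 5.67, 8.30 and 7.67 in replicates 1, 2 and 3 at week 6 and 4.99, 7.12 and 5.36 at week 12. Replicate 1 at week 6 was thus below replicate 2 at week 12. At weeks 8 and 10 the FVB glands ran from 4.04 to 7.63.

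Mki67, a marker of cycling cells, had 263, 3283 and 1864 normalized counts at week 6 and 253, 1027 and 254 at week 12, a log2 fold change of -1.85 with an SE of 0.89. The 2 high week 6 glands were above all week 12 glands, while replicate 1 was close to the lowest of them. Top2a, the DNA topoisomerase of dividing cells, showed the same picture with 132, 2071 and 929 against 96.9, 466 and 104 (-2.26). Mcm2, a subunit of the replicative helicase, had 89.2, 452 and 289 against 68.6, 88.2 and 89.7 (-1.78). Among genes chosen after their values were seen, Exo1, an exonuclease of DNA repair, had 26.7, 147 and 105 against 2.69, 10.1 and 3.28 (-4.12) and did not overlap. The centriole gene Stil (-3.26), the sliding-clamp loader Chtf18 (-2.70) and the kinase Cdc7 (-2.48) also had every week 12 value below every week 6 value. In PyMT samples the list had a median of -0.51, with 20 of the 50 genes lower at p under 0.05 (4.52% of all genes). The genotypes differed at p under 0.05 in 1 of the 50, against 6.52% of all genes.

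**Figure D3:**
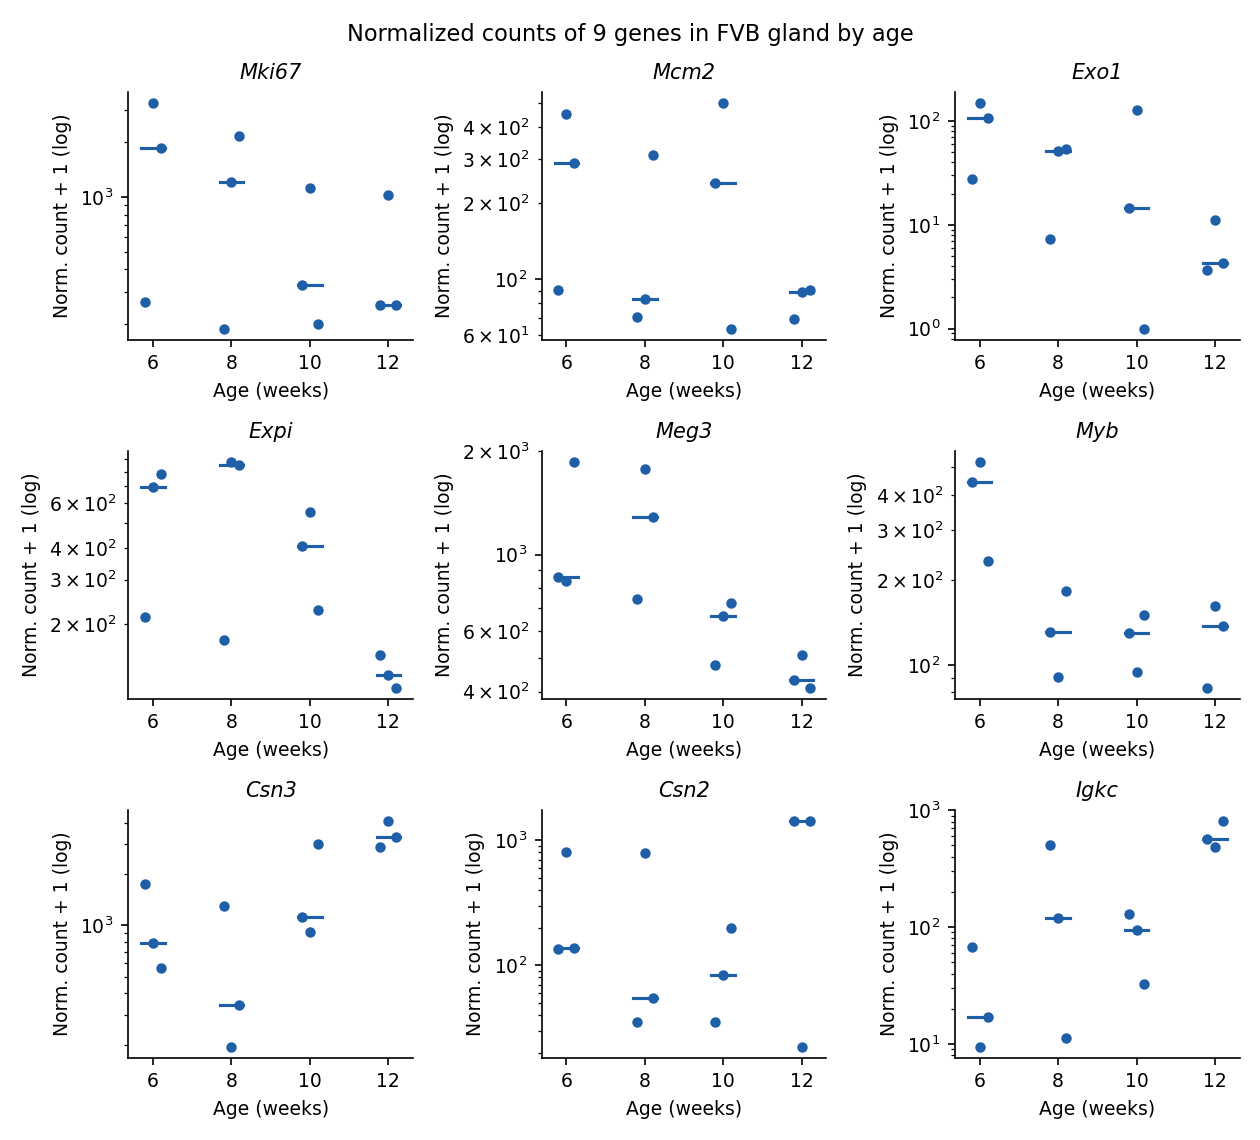
Normalized counts plus 1 (log axis) of 9 genes by age in weeks in FVB gland, with 1 point per sample and a line at the median of 3. The groups of week 6 and week 12 are apart for Exo1, Expi, Meg3, Myb, Csn3 and Igkc, while Mki67 spreads from 263 to 3283 at week 6 alone.

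Keratins and other epithelial markers had no common direction. Of 22 luminal genes 12 were higher and 10 lower, with a median log2 fold change of 0.18, which became -0.33 without replicate 2 of week 12. That gland had 4263 normalized counts of Krt8 against 1044 and 1513 in the other two, and the week 6 glands had 1685, 2293 and 1939. The log2 fold change of Krt8 was 0.17 with an SE of 0.48. Of 21 basal genes 12 were higher and 9 lower, with a median of 0.05. Krt14 had 380, 667 and 637 at week 6 and 377, 1076 and 334 at week 12. Krt15, a keratin of basal and progenitor cells, was lower with 75.3, 1163 and 617 against 10.8, 149 and 87.5, a log2 fold change of -2.94 with an SE of 1.05, and overlapped. Lcn2, a secreted iron-siderophore binder, was higher with 795, 346 and 522 against 1300, 1505 and 982 (1.16) and did not overlap. The list for terminal end buds and duct elongation had a median of 0.20, with 22 of 31 genes higher and 1 higher at p under 0.05 (2.92% of all genes).

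Hormone receptors were spread over both directions as well. The list of steroid and pituitary hormone receptors and their targets had a median of 0.25, with 11 of 19 genes higher, and 0.57 without replicate 1 of week 6. Esr1, the estrogen receptor, had 1558, 1295 and 1118 normalized counts at week 6 and 1590, 1559 and 1315 at week 12, a log2 fold change of 0.14 with an SE of 0.19. Pgr, the progesterone receptor, had 921, 390 and 258 against 556, 1491 and 798 (0.82, SE 0.52), and Areg, a growth factor induced by estrogen in puberty, had 873, 392 and 418 against 313, 2534 and 849 (1.10, SE 0.69). Both overlapped, and both were highest in replicate 2 of week 12. Cited1, a co-activator linked to estrogen receptor activity, was lower (-1.07), with groups apart. The most abundant members were the receptors Prlr (0.63), for prolactin, and Ghr (0.61), for growth hormone. Igf1 had 1937, 1944 and 2558 at week 6 and 1990, 2570 and 2919 at week 12, a log2 fold change of 0.18, and overlapped, while the insulin receptor substrate Irs1 had one of 0.70 with groups apart.

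Milk genes gave opposite results for single members. Csn3, kappa casein, had 1756, 785 and 560 normalized counts at week 6 and 2880, 4076 and 3314 at week 12, a log2 fold change of 1.69 with an SE of 0.42 and groups that did not overlap. Csn2, beta casein, had 133, 805 and 137 against 1418, 21.4 and 1413, so the week 12 glands held both the highest values and the lowest. Its log2 fold change was 1.38 with an SE of 1.22. Expi, a small secreted proteinase inhibitor of the mammary gland, was lower, with 212, 698 and 780 against 151, 125 and 112, a log2 fold change of -2.15 with an SE of 0.46, and did not overlap. Over the 17 tested genes of the milk list, 11 were higher and the median was 0.65. At p under 0.05, 1 was higher and 1 lower (2.92% and 2.57% of all genes). In PyMT samples the same 17 had a median of -0.85, and the genotypes differed at p under 0.05 in 8 of them (6.52% of all genes).

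Matrix genes pointed to both sides. Of 51 genes of fibrillar collagen and matrix assembly, 17 were higher and 34 lower, with a median log2 fold change of -0.11. At p under 0.05, 4 were lower and 2 higher (2.57% and 2.92% of all genes). Eln, elastin, had 1328, 923 and 1303 normalized counts at week 6 and 509, 479 and 790 at week 12 (-1.03, SE 0.25). Fn1, fibronectin, had 19170, 19050 and 23290 against 8669, 15720 and 9132 (-0.91), and Col14a1 and Loxl2 had log2 fold changes of -0.55 and -0.72. In these 4 of the 51 genes every week 12 gland was below every week 6 gland (4.65% of all genes). In 2 of the 51 every week 12 gland was above (7.13% of all genes). Col1a1, the main chain of type I collagen, had 19430, 24430 and 44900 against 9121, 16930 and 22480 (-0.90, SE 0.44), and overlapped, as did Col3a1 (-0.68) and Col1a2 (-0.66). The proteoglycan Dcn was higher, with 6191, 3751 and 5132 against 9198, 6609 and 13750 (0.94), and did not overlap. Basement membrane genes had a median of -0.19.

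Among imprinted genes, the RNAs of one cluster on chromosome 12 were lower. Meg3, a noncoding RNA expressed from the maternal allele, had 862, 840 and 1855 normalized counts at week 6 and 431, 509 and 410 at week 12, a log2 fold change of -1.43 with an SE of 0.33. Its neighbours Rian (-1.30) and Mirg (-1.89) were lower too, and none of the 3 overlapped (4.65% of all genes). In PyMT samples their log2 fold changes were -0.61, 0.04 and 1.01. The amino acid transporter gene Slc38a4 was also lower (-0.94), while Sgce (0.76), Rasgrf1 (1.33) and Dcn were higher, each with groups apart. H19, a noncoding RNA of fetal and growing tissue, had 4494, 2604 and 1539 against 3021, 761 and 177 and overlapped (-1.14, SE 0.89). At both ages H19 had the same replicate order as the muscle counts. In FVB at week 10 it had 3518 in replicate 3, where muscle genes made up 14.55% of counts, and 136 and 185 in replicates 1 and 2. The part of muscle content in the H19 values was not tested. The 20 tested genes of the list had a median of -0.33, which ranged from -0.61 without replicate 3 of week 12 to -0.05 without replicate 3 of week 6. Of the 20, 3 were higher and 4 lower at p under 0.05 (2.92% and 2.57% of all genes). The ages did not overlap in 3 higher and 4 lower genes (7.13% and 4.65% of all genes).

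Other genes with lower counts at week 12 belonged to no list or to several. Adamts20, a secreted metalloprotease, had 134, 146 and 174 normalized counts at week 6 and 55.2, 50.4 and 45.9 at week 12, a log2 fold change of -1.61 with an SE of 0.31. Riok2, a kinase of ribosome maturation, had 335, 383 and 358 against 175, 195 and 174 (-1.01, SE 0.19). FVB glands had 224 to 247 at week 8, and 312, 315 and 188 at week 10. Both showed narrow values that did not overlap. Gm14236, a processed transcript on chromosome 2, had 1704, 821 and 1170 against 187, 234 and 51.4 (-3.00). Chosen after their values were seen, Lars2, the leucyl-tRNA synthetase of mitochondria, had 595, 503 and 451 against 285, 233 and 202 (-1.13), and Myb, a transcription factor, had 442, 521 and 232 against 82.1, 160 and 137 (-1.69). In PyMT samples the log2 fold change was -0.86 for Lars2 and 0.07 for Myb. The stress-response gene Mt1, a metallothionein, was lower (-0.70) with groups apart.

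Summed over the 481 rows of immunoglobulin genes, the week 6 glands had 67.9, 41.8 and 62.1 CPM and the week 12 glands 221, 175 and 282. The groups did not overlap, and the ratio of their means was 3.95 (57.3 ± 13.7 against 226 ± 53.7, SD, n = 3 each). At weeks 8 and 10 the FVB glands had 78.5 to 150 and 81.1 to 174. Only 3 of the rows passed the filter on low counts. Igkc, the constant region of the kappa light chain, had 66.1, 8.48 and 15.9 normalized counts at week 6 and 564, 484 and 805 at week 12, a log2 fold change of 4.37 with an SE of 0.71. Igj, the chain that joins polymeric antibodies and is made by plasma cells, had 31.3, 19.3 and 2.64 against 183, 135 and 320 (3.56, SE 0.77), apart as well. Ighm, the heavy chain of IgM, had 512, 299 and 434 against 569, 224 and 573 and overlapped (0.11). Of the 24 genes of the B lymphocyte list, which holds Igj, 7 passed the filter on low counts. All 7 were higher, with a median of 0.67, and 1 had p under 0.05 (2.92% of all genes).

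Myeloid genes mostly had higher values too. Of 30 genes of macrophages and dendritic cells, 26 had higher counts and the median log2 fold change was 0.36. At p under 0.05, 5 were higher (2.92% of all genes). Spp1, osteopontin, had 781, 366 and 32.6 normalized counts at week 6 and 4376, 2115 and 2608 at week 12 (2.92, SE 0.92). Cd68, a lysosomal protein of macrophages, had 106, 72.5 and 93.4 against 295, 160 and 247 (1.34), and the dendritic cell lectin Cd209a had 16.2, 7.71 and 6.17 against 68.6, 46.6 and 64.5 (2.55). All 3 were apart between the ages. They were among 5 of the 30 genes with every week 12 value above every week 6 value (7.13% of all genes). Spp1 was also the most abundant member, and the next, Mrc1 (0.26) and Lyz2 (0.33), overlapped. In PyMT samples of all weeks Spp1 had 7668 to 32810, above every FVB gland, while Mrc1 had 434 to 1447 and Lyz2 597 to 2556. Which cells the Spp1 reads came from was not tested. Tpsb2, a tryptase of mast cells, had 47.5, 15.4 and 39.7 against 116, 144 and 240 (2.25), while the mast cell protease Cpa3 (1.44) and Kit (-0.26), which epithelium also expresses, overlapped.

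Interferon-stimulated genes had a median of 0.24, with 27 of 34 higher and 3 at p under 0.05, Rsad2 (1.45), Iigp1 (1.26) and Gbp2 (0.55). Over all genes, 2.92% were higher at p under 0.05. MHC class II genes had a median of 0.50, with 9 of 10 higher and H2-Aa (0.75) at p under 0.05. Genes of acute phase and innate secretion had a median of 0.70 and 4 of 16 at p under 0.05, all higher, among them Lcn2 and Spp1 from above and the chitinase-like gene Chi3l1 (1.51). Genes of red blood cells had a median of 0.73 over 5 genes, 4 of them higher. Hba-a1, an alpha globin, had 2031, 926 and 861 normalized counts at week 6 and 2139, 3210 and 2459 at week 12 (1.00), with groups apart. The part of blood content in the immune values was not tested. The T lymphocyte list, with 6 of its 26 genes tested, had a median of 0.56, which became -0.33 without replicate 2 of week 12.

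**Figure D4:**
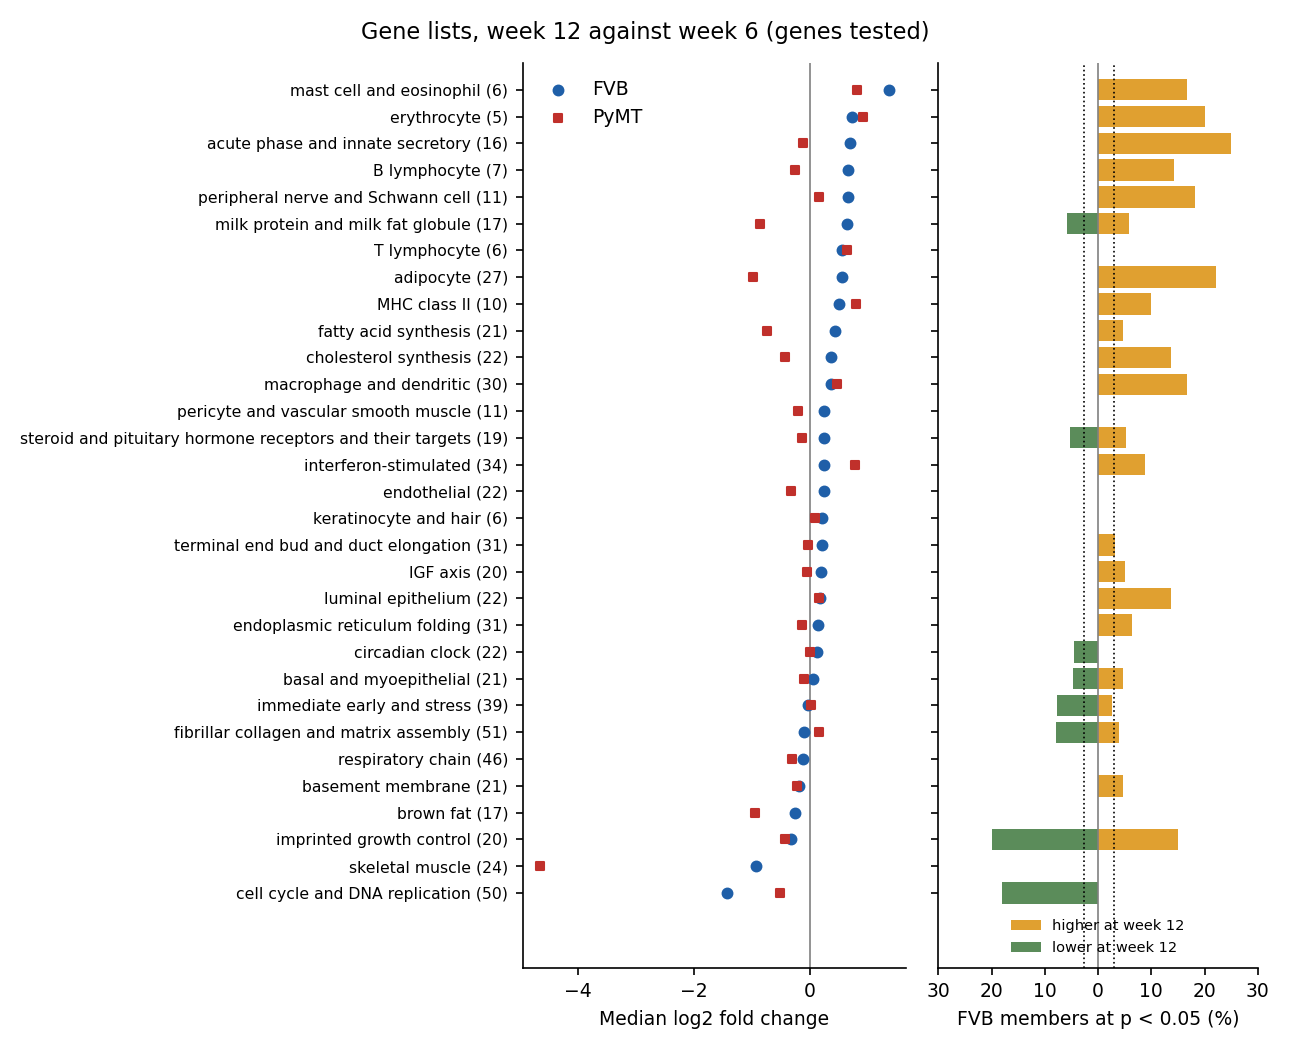
Median log2 fold change of week 12 over week 6 in FVB (circles) and PyMT (squares) for the lists with at least 5 tested genes (number in brackets), and the percentage of members with an unadjusted p under 0.05 in FVB, higher to the right and lower to the left. Dotted lines mark the percentages over all genes, 2.92 and 2.57, and adipocyte genes lie above 0 in FVB (0.55) and below it in PyMT (-0.99).

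Genes of skeletal muscle and brown fat, tissues that can lie next to the gland, varied widely among the libraries. Acta1, the actin of skeletal muscle, had 104900, 23130 and 44.1 normalized counts at week 6 and 65810, 2118 and 319 at week 12, so single glands differed by far more than the ages, and its log2 fold change was -0.93 with an SE of 2.14. The 24 muscle genes had a median of -0.93 and none had p under 0.05. Without replicate 1 of both ages, a choice made after seeing the data, the median was -3.26, and that of the cell cycle list was -1.52. Brown fat genes had a median of -0.26 with none at p under 0.05. Ucp1, the uncoupling protein that defines brown fat, had 4402, 1039 and 802 at week 6 and 4519, 1321 and 5.47 at week 12, again highest in the replicates with the most muscle. Genes of peripheral nerve had a median of 0.65, of endothelium 0.24 and of pericytes 0.25. The part of unequal tissue content in the results above was not tested.

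**Figure D5:**
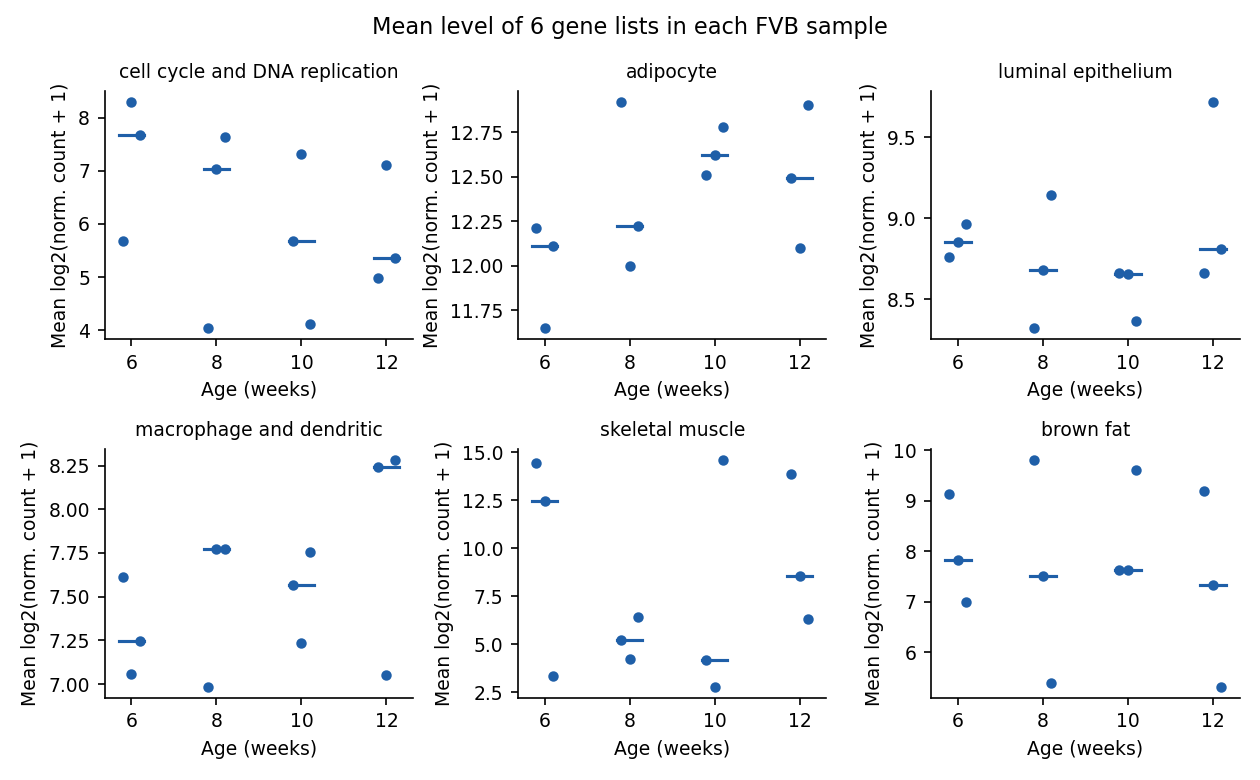
Mean log2 of the normalized count plus 1 over the tested members of 6 gene lists in the FVB libraries by age in weeks, with 1 point per sample and a line at the median of 3. The cell cycle list spans 5.67 to 8.30 at week 6 and 4.99 to 7.12 at week 12, and the adipocyte list spans 11.65 to 12.21 and 12.10 to 12.90.

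Clock genes, respiratory chain genes and genes of protein folding had medians near 0. The clock list had a median of 0.12, and 0.36 without replicate 1 of week 6, with the repressor Nfil3 lower (-1.08). Of its 22 genes 1 was lower at p under 0.05 (2.57% of all genes). The 46 respiratory chain genes had a median of -0.12, 35 of them lower and none at p under 0.05. Their mean log2 level differed more among libraries than between ages, with 10.51, 9.61 and 9.19 at week 6 and 10.42, 9.34 and 9.39 at week 12, and was highest in replicate 1 of each age, which also had the most muscle counts. Of 31 genes of folding in the endoplasmic reticulum 24 were higher, with a median of 0.15. Of these, Xbp1, a transcription factor of secretory cells, had 1641, 1564 and 1443 normalized counts at week 6 and 1988, 2402 and 2455 at week 12 (0.53, SE 0.17), and its groups did not overlap.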

How the data were processed

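Directional RNA-seq of mammary tissue was used from 6 FVB samples, with 6 PyMT samples of the same weeks for the difference between genotypes and the others for levels. The authors aligned reads to mm9 with GSNAP and deposited raw counts per Ensembl gene from HTSeq (names as in the submitters' processing notes), 1 column per sample, without normalization. How reads that fit several places were handled is not given in the sources used here beyond default alignment settings. The table held 37991 genes, of which 37205 had a model in GENCODE M1, used for symbols and coordinates, and sequences came from the mm9 (NCBIM37) genome.

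Groups came from the labels. This comparison and the gene lists were chosen with earlier results of these data known. Genes with at least 1 CPM in at least 12 of 24 samples were tested (14918) by edgeR's quasi-likelihood test with TMM scaling and Benjamini-Hochberg adjustment, on the 6 samples. A call needed an adjusted p under 0.05 and a fold above 2. The difference between genotypes was an interaction term over 12 samples. The SE of a log2 fold change is its size over the square root of F. Counts divided by DESeq2's size factors are called normalized counts.

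Genes named were to be called genes, which were lacking, then the 5 with the smallest p in each direction among those with a mean of at least 100 normalized counts and no overlap, the 3 most abundant of each described list, the 5 smallest p of the genotype difference and 12 fixed genes (Mki67, Esr1, Pgr, Areg, Igf1, H19, Csn2, Krt8, Krt14, Adipoq, Col1a1, Acta1). List members outside this rule, and genes said to be so, were named after their values were seen.

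Total counts were 6969375 to 11376792 over the 6 libraries. Replicates differed by a chi-square of 46.3 to 197 per gene, so no library was a copy of another. They were separate mice, 3 per group. In simulated data with 200 genes changed 4-fold, the fit recovered 101 (50.5%), and 10 of its 111 calls were wrong. Alternatives were other scalings, filters, tests, covariates, samples in the fit and replicates left out. R 4.3.3, edgeR 4.0.16, DESeq2 1.42.0, limma 3.58.1, Python 3.11.15 and matplotlib 3.10.9 were used.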

Additional observations from a re-analysis of the deposited data

How the results depend on the processing

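The count of 0 genes called between weeks 6 and 12 in FVB was also 0 with RLE scaling, library size alone, a weaker filter, limma voom, a test against a 2-fold change, fits of 12 or 24 samples, the muscle level as a covariate, muscle and the most abundant genes left out of scaling, and counts divided by packet size. It became 6 without a filter on low counts, 61 with DESeq2, 43 with the exact test and 49 with the likelihood ratio test, and at any fold change these were 6, 66, 43 and 49. With 1 replicate left out it ran from 0 to 4, with 4 without replicate 1 of week 6 and 3 without replicate 2 of week 12. The replicate block called 8 genes, 4 of them repeat or short-sequence rows, and 1470 had p under 0.05. Among the 50 cell cycle genes, 34 had p under 0.05 and lower counts with the block, against 9 without it, and its calls included Cenpf and Hist1h3c. Over all 14918 genes the count at p under 0.05, both directions together, was also larger with the block, 1470 against 820 without it. The labels do not say that numbers pair the mice. Deviations of same-numbered samples correlated at 0.396, 0.0984 and 0.321 over all genes, and at 0.354, 0.108 and 0.247 without the muscle list. Replicate 2 of week 12 correlated best with replicate 3 of week 6 (0.149, and 0.140 without the muscle list). As 1 of the 3 correlations over all genes was under 0.1, the numbers were not taken as pairs, a choice that the values without the muscle list would not give. Chosen after seeing the data, leaving out both libraries of replicate 1 or the repeat rows gave 0, and the replicate block without the repeat rows gave 3. The difference between FVB and PyMT passed 0 genes, 0 with the block, 1 with library size alone, 78 with DESeq2 and 0 to 9 with 1 replicate left out, 9 without replicate 1 of FVB week 6. Of the log2 fold changes of the named genes under the alternatives, 3204 kept their call and shifted by no more than the SE, 95 moved past the threshold for a call and 95 shifted by more than their SE. Of the list medians 758 shifted by no more than the spread between replicates and 10 by more. The causes of these shifts were not tested. With 3 mice per age, the simulation recovered 50.5% of genes changed 4-fold, so changes of 4-fold and less could be missed. Changes of less than 4-fold were not simulated. The simulated counts were drawn independently for each gene, without the packets seen in replicate 2 of each age.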
